A study of Mus with 15 samples.

Results

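The genes described here encode the enzymes of the regulated entry steps of glycolysis. They are the hexokinases Hk1, Hk2 and Hk3, the phosphofructokinases Pfkl, Pfkm and Pfkp, and the bifunctional regulators Pfkfb1, Pfkfb2, Pfkfb3 and Pfkfb4. They were chosen by their symbols, and all 10 were found among the 55471 genes of the deposited matrix. Their mRNA was measured by RNA sequencing of bulk adipose tissue in 5 fat grafts taken at day 7, 5 fat grafts taken at day 3 and 5 pieces of control adipose tissue. Mice of all 3 groups were wild type C57BL/6, aged 7 weeks. The labels name no depot, no recipient site and no further treatment of any group, and they do not say whether the replicates came from separate animals, so each p-value measures the spread between these samples.

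Hexokinases phosphorylate glucose as it enters the cell, which keeps it there for glycolysis, glycogen or the pentose phosphate pathway. Phosphofructokinase then commits fructose 6-phosphate to glycolysis, and its strongest allosteric activator is fructose 2,6-bisphosphate. PFKFB enzymes both make and break down that activator, with a balance of the opposing activities that differs between isoforms. In fat, insulin drives glucose uptake and Hk2 transcription in adipocytes, while macrophages and other stromal cells carry their own set of isoforms.

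The libraries held 20.2 to 32 M counts in the day 7 grafts, 23.7 to 29.4 M in the day 3 grafts and 17.1 to 31.8 M in the controls. Of the 12 adipocyte markers, which include Adipoq and Plin1, all were above 0 in every library, and all 12 fell in both kinds of graft against control. The adipocyte score, the mean log2(CPM + 1) of the list, was 4.47 to 5.61 in the day 7 grafts, 5.77 to 7.65 in the day 3 grafts and 8.84 to 10.5 in the controls. The macrophage score was 8.64 to 9.36 in the day 7 grafts, 8.27 to 9.21 in the day 3 grafts and 5.59 to 7.47 in the controls, and all 12 macrophage markers rose in both kinds of graft. Control 2 stood apart in skeletal muscle markers, with a summed level of 4437 CPM against 31.96 to 418 CPM in the other controls. Transcripts of the mitochondrial genome took 2.17 to 2.89% of counts in the day 7 grafts, 2.35 to 4.02% in the day 3 grafts and 9.01 to 14.9% in the controls. In bulk tissue, fewer cells of a type and less RNA per cell cannot be told apart.

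Against control, 4 of the 10 genes rose and 4 fell in the day 7 grafts, and the same counts held in the day 3 grafts. Hk1, Hk3, Pfkp and Pfkfb4 were the genes that rose at both times. Pfkm, Pfkfb1, Pfkfb2 and Pfkfb3 were those that fell at both times, and Hk2 and Pfkl passed the test at neither. Calls rest on limma-voom with p-values adjusted over 16051 tested genes, all 10 members included, at a threshold of 0.05. By that rule 60.7% of all tested genes were called in the day 7 grafts and 60.4% in the day 3 grafts, and 80% of the members at each time. In single directions 32.2% of genes rose and 28.4% fell at day 7, and 30.1% rose and 30.3% fell at day 3, against 4 of 10 members each way. The median log2 fold change of the 10 genes was -0.40 at day 7 and 0.45 at day 3, against 0.03 at day 7 and -0.02 at day 3 over all tested genes. Both comparisons use the same 5 controls. No member was called between day 7 and day 3 grafts, where the background was 4.88% of genes (3.18% higher at day 7 and 1.71% lower).

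**Figure D1:**
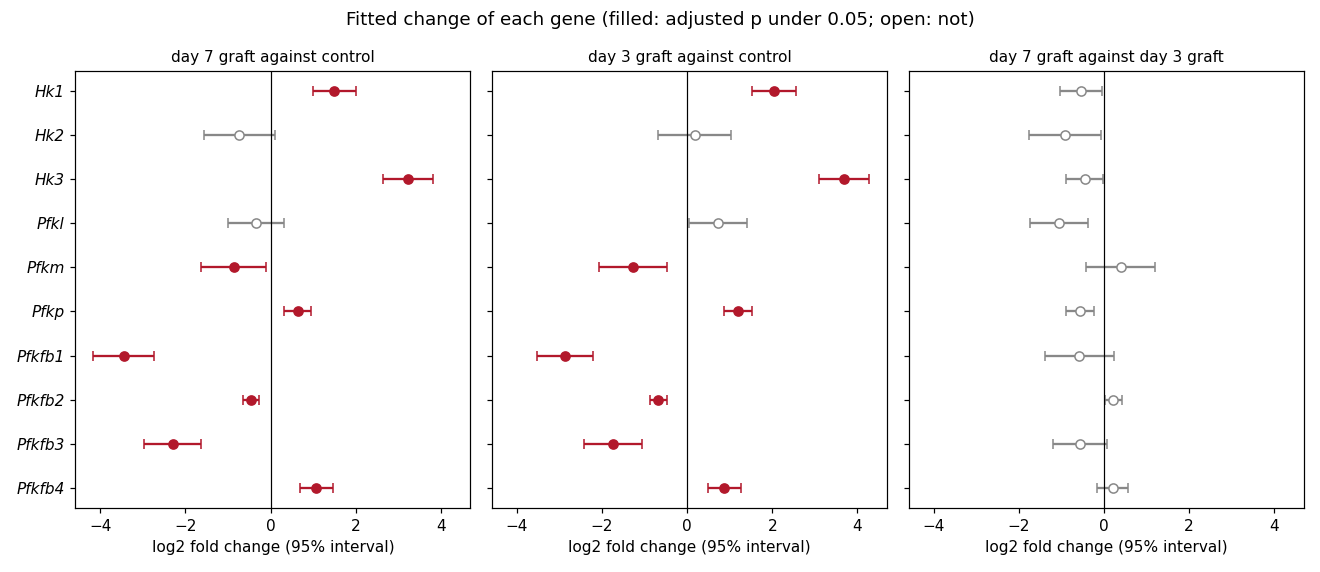
Fitted log2 fold change of each gene (horizontal axis) with its 95% interval in 3 comparisons of 5 libraries each, with filled points for an adjusted p under 0.05 and open points for the rest. Hk3 had the highest values of the 10 genes against control, at 3.23 (day 7) and 3.68 (day 3), and Pfkfb1 the lowest, at -3.45 and -2.87, while all points of day 7 against day 3 are open.

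Among the hexokinases, Hk3 and Hk1 rose in the grafts while Hk2 did not pass the test. Levels are given as CPM, counts scaled to a common library size, with libraries 1 to 5 of each group in order. Hk3, the hexokinase of myeloid cells (mm10 chromosome 13, 55005985 to 55021385, minus strand), was at 57.6, 63.1, 61.6, 73.1 and 68.7 CPM in the day 7 grafts, 105, 59.3, 112, 113 and 65.8 CPM in the day 3 grafts, and 5.34, 5.57, 5.74, 6.02 and 14.3 CPM in the controls. Every graft lay above every control, and control 5 was the highest of the controls. Control 5 also had the highest macrophage score of the controls, at 7.47, the highest neutrophil score (3.57, against 1.48 to 1.81 in the other controls) and the highest fibroblast score (8.12, against 6.37 to 7.97). The log2 fold change of Hk3 was 3.23 ± 0.28 (SE) at day 7 (adjusted p = 3.87e-07) and 3.68 ± 0.28 at day 3 (adjusted p = 2.21e-07). The macrophage markers moved with Hk3 across the groups, and their part in the change was not tested.

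Hk1, the broadly expressed hexokinase that binds mitochondria (chromosome 10, 62268855 to 62379908, minus strand), was at 80.0, 63.3, 95.8, 91.7 and 118 CPM in the day 7 grafts, 108, 109, 164, 181 and 97.6 CPM in the day 3 grafts, and 31.9, 31.2, 44.7, 18.9 and 35.3 CPM in the controls. The grafts again lay above all controls without overlap. Its log2 fold change was 1.501 ± 0.24 at day 7 (adjusted p = 7.68e-05) and 2.04 ± 0.24 at day 3 (adjusted p = 6.46e-06).

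Hk2, the insulin-responsive hexokinase of fat and muscle (chromosome 6, 82725025 to 82774454, minus strand), was at 56.1, 29.97, 56.6, 52.8 and 133 CPM in the day 7 grafts, 89.2, 89.8, 135, 141 and 105 CPM in the day 3 grafts, and 179, 118, 44.7, 144 and 63.1 CPM in the controls. The controls overlapped both graft groups, and day 7 graft 5 stood far above the other day 7 grafts. On the log2 scale Hk2 was at -0.74 ± 0.39 at day 7 (95% interval -1.57 to 0.10, adjusted p = 0.115) and 0.18 ± 0.40 at day 3 (-0.67 to 1.03, adjusted p = 0.719). The day 7 value passed the test without day 7 graft 5 (-1.04, adjusted p = 0.0211), without control 3 (-1.03, adjusted p = 0.0275) and with sample quality weights (-1.31, adjusted p = 8.31e-04). The day 3 value turned negative without control 3 (-0.11) and with quality weights (-0.15), with no call in either.

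The phosphofructokinases gave 1 gene that rose, 1 that fell and 1 that was not called. Pfkp, the platelet-type subunit (chromosome 13, 6579768 to 6648777, minus strand), was at 174, 132, 211, 201 and 260.5 CPM in the day 7 grafts, 239.9, 311, 327, 317 and 232 CPM in the day 3 grafts, and 119, 120.1, 117, 133 and 128 CPM in the controls. The controls lay within a narrow range, all below the day 3 grafts, and only day 7 graft 2 reached into it. Its log2 fold change was 0.64 ± 0.15 at day 7 (adjusted p = 0.00215) and 1.197 ± 0.15 at day 3 (adjusted p = 1.46e-05). On log2(TPM + 1) the day 7 change was 1.06 (adjusted p = 1.68e-05), a scale on which the median of all genes was itself at 0.33.

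Pfkm, the muscle-type subunit (chromosome 15, 98092589 to 98132451, plus strand), was at 25.0, 22.5, 33.8, 21.7 and 16.4 CPM in the day 7 grafts, 19.2, 19.4, 13.7, 18.6 and 18.2 CPM in the day 3 grafts, and 38.7, 131, 25.9, 48.2 and 23.8 CPM in the controls. All day 3 grafts lay below all controls, the day 7 grafts overlapped them, and control 2 was far above every other library. Control 2 was also the library with the most skeletal muscle mRNA (score 7.79). Control 5 came next in muscle score (4.72) and had the lowest Pfkm of the controls. Day 3 graft 1 had a muscle score of 4.11, against 0.57 to 0.84 in the other day 3 grafts, and its Pfkm of 19.2 CPM was within their range. Among the day 7 grafts, the muscle score and Pfkm were both highest in graft 3 (4.204, with 33.8 CPM). Graft 1 came next in both (3.38, with 25.0 CPM), and graft 5 was lowest in both (0.47, with 16.4 CPM). Day 7 grafts 4 and 2 lay between, at scores of 1.193 and 1.099 with 21.7 and 22.5 CPM. The part of muscle mRNA in the Pfkm result was not tested. The log2 fold change of Pfkm was -1.27 ± 0.37 at day 3 (adjusted p = 0.00904), and without control 2 it was -0.89, still called. At day 7 it was -0.87 ± 0.36 (adjusted p = 0.0485), and the call ended without control 2 (-0.50, adjusted p = 0.0757). The day 7 call ended in 12 of the 15 fits that each left out 1 library, with adjusted p-values of 0.0162 to 0.106 over the 15. It also ended with library totals as the scaling (-0.79, adjusted p = 0.0691), with no filter on low counts (-0.83, adjusted p = 0.0735), with only these 2 groups in the fit (-0.92, adjusted p = 0.0824) and on log2(TPM + 1) (-0.47, adjusted p = 0.248).

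Pfkl, the liver-type subunit (chromosome 10, 77986947 to 78010083, minus strand), was at 93.4, 62.5, 133, 122 and 219 CPM in the day 7 grafts, 167, 274, 263, 316 and 220.4 CPM in the day 3 grafts, and 191, 173, 113, 215 and 86.7 CPM in the controls. Day 7 graft 5 lay among the day 3 grafts, and the controls overlapped both graft groups. For Pfkl the log2 fold change was -0.35 ± 0.31 at day 7 (95% interval -1.01 to 0.31, adjusted p = 0.343) and 0.71 ± 0.32 at day 3 (0.03 to 1.40, adjusted p = 0.0657). The day 3 value passed the test in 4 of the 15 fits that each left out 1 library, which were those without day 7 graft 2, day 7 graft 5, day 3 graft 1 or control 4 (adjusted p = 0.0421, 0.0381, 0.0451 and 0.0346). It also passed with library totals (0.76, adjusted p = 0.0325), with no filter on low counts (0.77, adjusted p = 0.0441), with only these 2 groups in the fit (0.71, adjusted p = 0.042) and on log2(TPM + 1) (1.03, adjusted p = 0.00297). The day 7 value passed with sample quality weights (-0.62, adjusted p = 0.0227), and on log2(TPM + 1) it had the other sign (0.11, adjusted p = 0.718).

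All 4 PFKFB genes changed in both kinds of graft, 3 of them downward. Pfkfb1, first described in liver and muscle (chromosome X, 150588229 to 150643878, plus strand), was at 5.24, 6.80, 6.12, 6.99 and 3.99 CPM in the day 7 grafts, 5.92, 12.1, 8.69, 6.91 and 10.2 CPM in the day 3 grafts, and 66.5, 68.3, 40.6, 123 and 42.3 CPM in the controls. No graft came near the lowest control. The log2 fold change was -3.45 ± 0.33 at day 7 (adjusted p = 1.15e-06) and -2.87 ± 0.31 at day 3 (adjusted p = 3.06e-06). The adipocyte score was lower in every graft than in any control, as Pfkfb1 was, and its part in the Pfkfb1 result was not tested.

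Pfkfb3, the inducible isoform with a strong bias toward making fructose 2,6-bisphosphate (chromosome 2, 11471433 to 11554077, minus strand), was at 126, 74.4, 133, 111 and 261 CPM in the day 7 grafts, 133, 214, 215, 226 and 182 CPM in the day 3 grafts, and 697, 925, 499, 858 and 378 CPM in the controls. Every control was above every graft, and day 7 graft 5 was the highest graft. For Pfkfb3 the log2 fold change was -2.30 ± 0.31 at day 7 (adjusted p = 2.07e-05) and -1.75 ± 0.32 at day 3 (adjusted p = 2.78e-04).

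Pfkfb4, an isoform first found in testis (chromosome 9, 108991778 to 109032228, plus strand), was at 46.4, 45.1, 47.3, 44.2 and 42.2 CPM in the day 7 grafts, 48.7, 28.4, 43.4, 37.7 and 40.5 CPM in the day 3 grafts, and 25.4, 19.8, 18.1, 15.3 and 32.3 CPM in the controls. It was the PFKFB gene that rose, with day 3 graft 2 alone falling inside the range of the controls. The log2 fold change was 1.08 ± 0.18 at day 7 (adjusted p = 1.31e-04) and 0.87 ± 0.18 at day 3 (adjusted p = 7.74e-04).

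Pfkfb2, the heart-type isoform (chromosome 1, 130689182 to 130729253, minus strand), was at 14.0, 15.8, 13.7, 15.3 and 14.9 CPM in the day 7 grafts, 13.4, 12.8, 11.9, 11.7 and 13.2 CPM in the day 3 grafts, and 21.3, 20.5, 19.0, 22.2 and 17.7 CPM in the controls. The 3 groups did not overlap at all, and the day 7 grafts lay between the other two. The log2 fold change was -0.45 ± 0.09 at day 7 (adjusted p = 5.62e-04) and -0.68 ± 0.09 at day 3 (adjusted p = 2.60e-05). On log2(TPM + 1) both calls ended (-0.05, adjusted p = 0.764 at day 7, and -0.29, adjusted p = 0.0559 at day 3).

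Of the 10 genes, 6 had no overlap between day 7 grafts and controls and 7 had none between day 3 grafts and controls, against 42.5% and 40.5% of all tested genes. Several genes lie over a gene on the opposite strand, and whether the counting used the strand of these stranded libraries was not given by any source used here. Over all 15 libraries together, the counts of Senp1 were 136% of those of Pfkm, those of Yod1 66.3% of Pfkfb2, those of Apex2 46.6% of Pfkfb1 and those of Pitrm1 40.6% of Pfkp. The shares differed between groups. Apex2 had 183% of the counts of Pfkfb1 in the day 7 grafts, 117% in the day 3 grafts and 20.01% in the controls. Unc5a, opposite Hk3, had 2.90% of the counts of Hk3 in the day 7 grafts, 1.87% in the day 3 grafts and 147% in the controls. The values of these 5 genes are uncertain for that reason, most in the group where the gene itself was low.

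Between day 7 and day 3 grafts none of the 10 genes passed the test, and 6 had an unadjusted p under 0.05 (Hk1, Hk2, Hk3, Pfkl, Pfkp and Pfkfb2). Over all genes 784 were called and 3244 had an unadjusted p under 0.05. Pfkl had the lowest log2 fold change, at -1.06 ± 0.32 (95% interval -1.75 to -0.38, adjusted p = 0.0716). Pfkp was at -0.56 ± 0.16 (-0.90 to -0.22, adjusted p = 0.0578) and Hk2 at -0.91 ± 0.40 (-1.76 to -0.07, adjusted p = 0.209). The means of these 3 genes were lower at day 7, and whether they were called turned on the processing and on single libraries. Pfkp passed with median-of-ratios scaling (-0.59, adjusted p = 0.0489) and with no filter on low counts (-0.58, adjusted p = 0.0472), and Pfkl with only the grafts in the fit (-1.08, adjusted p = 0.0469). With sample quality weights 6 of the 10 genes were called, Pfkl (adjusted p = 0.00459), Pfkp (0.00723), Hk2 (0.0153), Hk1 (0.0201), Pfkfb3 (0.0277) and Hk3 (0.0384), all lower at day 7. These weights called 3668 of the 16051 genes, 1533 of them lower at day 7. Without day 7 graft 5 the test was passed by Pfkl at -1.29 (adjusted p = 0.0145), Pfkp at -0.67 (adjusted p = 0.0127) and Hk2 at -1.21 (adjusted p = 0.0489). The number of all genes called was then 1489. Pfkl and Pfkp also passed without control 4 (adjusted p = 0.0448 and 0.0376), and Pfkl without control 5 (adjusted p = 0.0493). For Pfkfb4 (0.20 ± 0.17, interval -0.15 to 0.56) and Pfkm (0.40 ± 0.38, interval -0.42 to 1.21) the means were higher at day 7 and were not called. Pfkfb2 was the 1 gene of the 10 whose day 7 and day 3 grafts did not overlap (0.22 ± 0.09, adjusted p = 0.196), against 7.88% of all genes.

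Levels of different genes can be compared as TPM, transcript abundances that are divided by length and scaled to the same total in every library. The summed hexokinase level was 111 ± 22.2 TPM in the day 7 grafts, 162 ± 27.8 TPM in the day 3 grafts and 59.2 ± 18.0 TPM in the controls (SD, n = 5 each). The summed phosphofructokinase level was 157 ± 38.2 TPM at day 7, 233 ± 33.3 TPM at day 3 and 114 ± 26.8 TPM in the controls. The summed PFKFB level was lower in the grafts, at 93.1 ± 15.7 TPM at day 7, 103 ± 9.01 TPM at day 3 and 254 ± 56.9 TPM in the controls. The sums are given with no test. The TPM scale itself raised the grafts against the controls, with a median log2(TPM + 1) change over all genes of 0.33 at day 7 and 0.22 at day 3. In mean CPM, Pfkp was higher at day 7 than in the controls (196 against 123). Pfkl (126 against 156) and Pfkm (23.9 against 53.6) were lower.

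**Figure D2:**
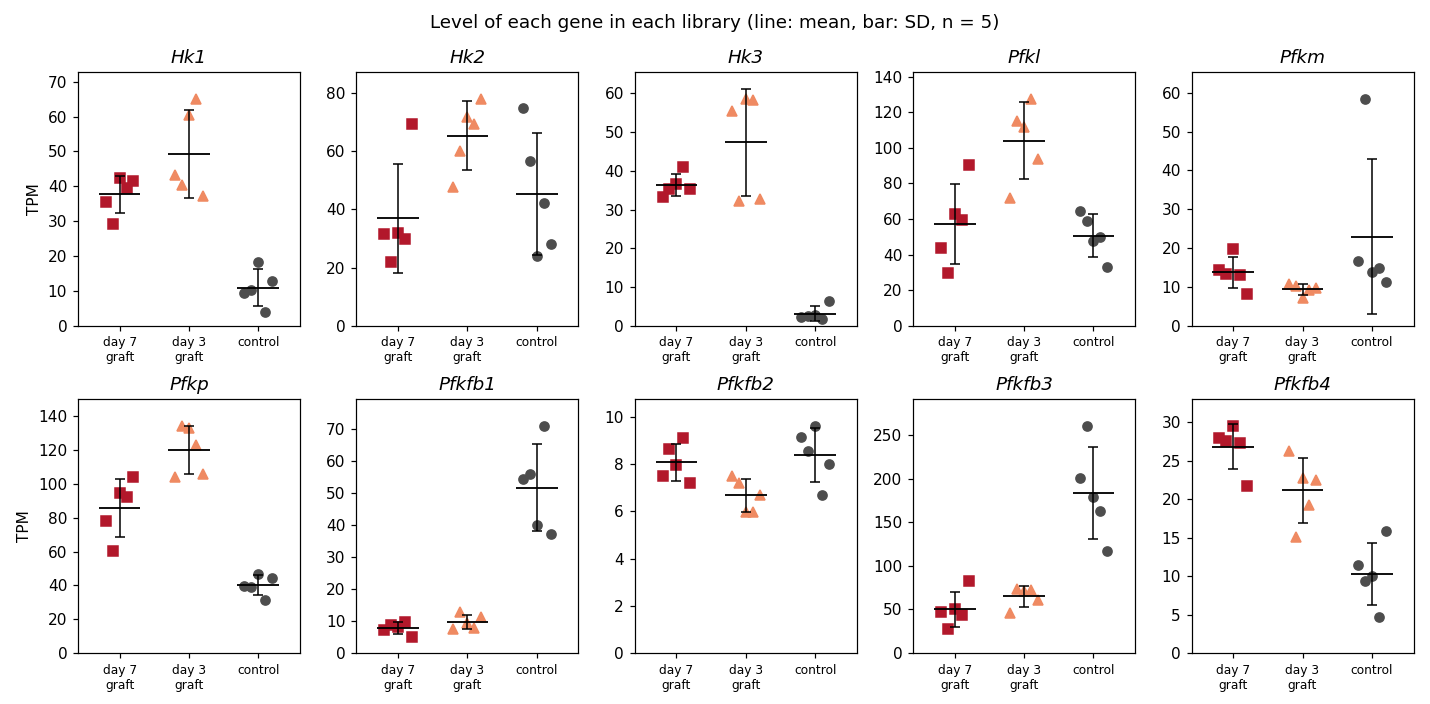
Level in TPM (vertical axis, linear, from 0) of each gene in every library, with the mean as a line and the SD as a bar for n = 5 day 7 grafts, day 3 grafts and controls. Hk3 lies at 33.2 to 41.0 TPM in the day 7 grafts and 32.1 to 58.5 TPM in the day 3 grafts, above the controls at 1.82 to 6.45 TPM, and Pfkfb1 lies at 5.05 to 9.59 TPM in the day 7 grafts and 7.52 to 12.7 TPM in the day 3 grafts, below the controls at 37.4 to 70.9 TPM.

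In the hexokinase family the order of levels differed between the groups. Hk1, Hk2 and Hk3 were at 37.7 ± 5.39, 36.8 ± 18.6 and 36.3 ± 2.89 TPM in the day 7 grafts, with overlapping ranges, and each of the 3 was the highest in at least 1 library. In the day 3 grafts Hk2 was at 65.3 ± 11.7 TPM, Hk1 at 49.3 ± 12.6 TPM and Hk3 at 47.4 ± 13.8 TPM, again with overlapping ranges, and Hk2 was the highest in 4 of 5 libraries. In the controls Hk2 was at 45.1 ± 20.9 TPM and was the highest in all 5, above Hk1 at 10.98 ± 5.27 TPM without overlap, while Hk1 and Hk3 (3.15 ± 1.88 TPM) overlapped. Among phosphofructokinases Pfkp was the highest in 5 of 5 day 7 grafts (85.8 ± 17.0 TPM) and 4 of 5 day 3 grafts (120.1 ± 14.3 TPM), and Pfkl in 4 of 5 controls (50.7 ± 12.1 TPM). The ranges of Pfkp and Pfkl overlapped in all 3 groups. Pfkfb3 was the highest PFKFB gene in every library, and the gene next to it was Pfkfb4 in the grafts (26.8 ± 2.95 TPM at day 7 and 21.2 ± 4.22 TPM at day 3) and Pfkfb1 in the controls (51.7 ± 13.5 TPM).

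The share of each isoform, its percentage of the summed TPM of its family, does not depend on the scaling of a library. Shares were compared with a two-sided exact permutation test of 5 against 5 libraries, whose smallest possible p is 0.00794, with adjustment over all 30 comparisons of 10 genes. Of the 30, 16 passed at an adjusted p under 0.05, and 0.0198 is the smallest adjusted p reached. Shares of a family sum to 100%, so a gain of 1 gene entails a loss of others and the tests within a family are not independent.

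**Figure D3:**
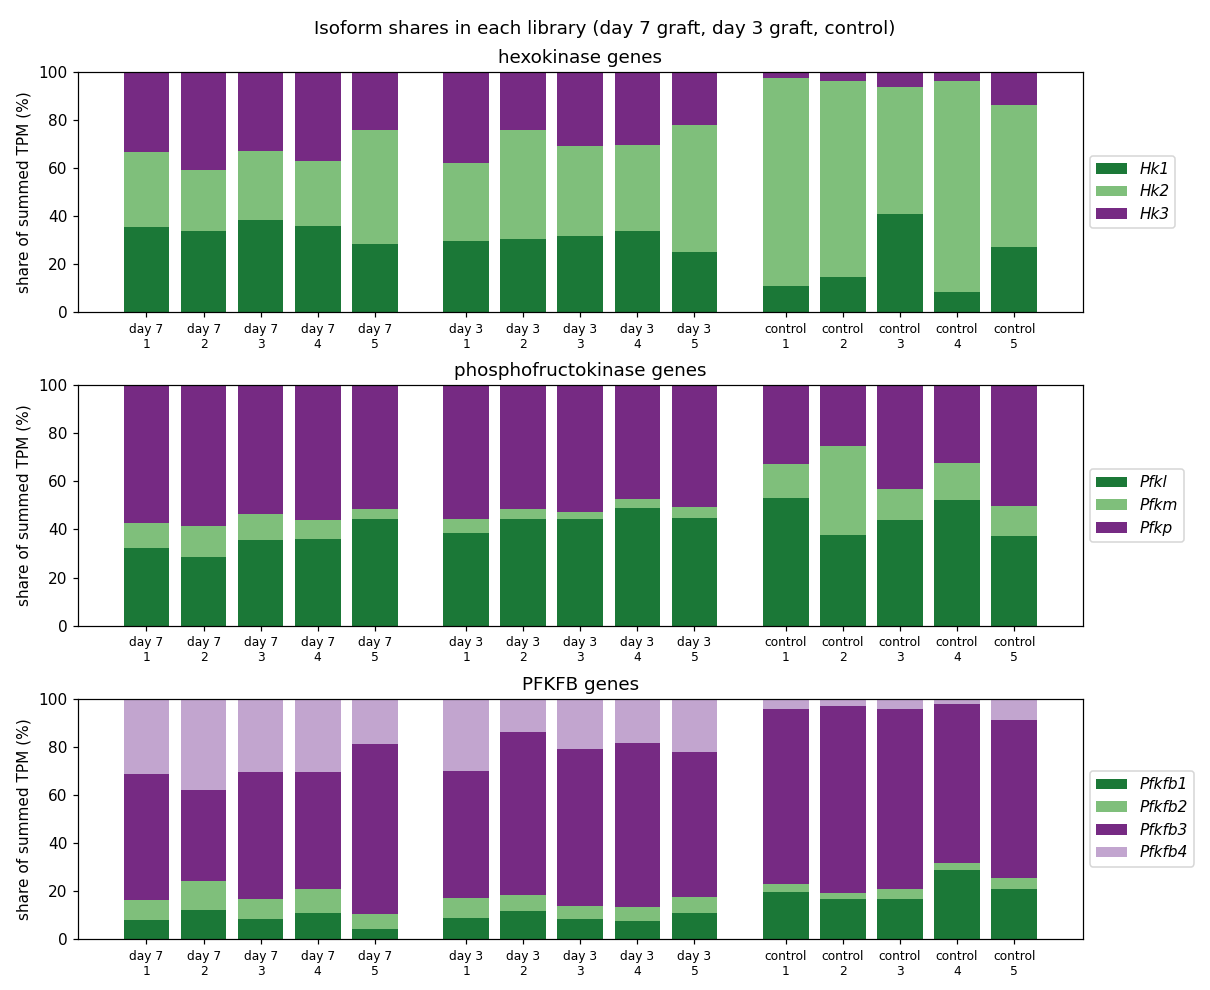
Share of each isoform in the summed TPM of its family (vertical axis, percent), with 1 stacked bar per library for 5 day 7 grafts, 5 day 3 grafts and 5 controls. Hk2 fills 53.2 to 87.9% of the hexokinase bars of the controls, against 25.2 to 47.4% at day 7 and 32.6 to 52.7% at day 3.

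Hk2 made up 31.4, 25.2, 28.7, 27.0 and 47.4% of hexokinase TPM in the day 7 grafts, 32.6, 45.3, 37.6, 36.0 and 52.7% in the day 3 grafts, and 86.5, 81.6, 53.2, 87.9 and 59.2% in the controls. Each graft had a smaller Hk2 share than any control, although the Hk2 level itself was not called. The difference was -41.7 percentage points at day 7 and -32.8 at day 3 (exact permutation test, adjusted p = 0.0198 for each). The day 3 call ended without day 3 graft 1 (-30.8, adjusted p = 0.0529) and without day 3 graft 3 (-32.0, adjusted p = 0.051) in the same exact test.

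Hk3 made up 33.2, 40.9, 33.1, 37.1 and 24.2% in the day 7 grafts, 37.8, 24.3, 30.7, 30.3 and 22.1% in the day 3 grafts, and 2.56, 3.64, 6.12, 3.79 and 13.6% in the controls. The groups of grafts lay wholly above the controls, by 27.7 points at day 7 and 23.1 at day 3 (exact permutation test, adjusted p = 0.0198 for each). Hk1 averaged 34.4 ± 3.66% at day 7, 30.1 ± 3.17% at day 3 and 20.4 ± 13.5% in the controls, whose range of 8.29 to 40.7% covered both (exact permutation test, adjusted p = 0.108 at day 7 and 0.159 at day 3). Without control 3, the control with the largest Hk1 share, both Hk1 differences passed the exact test (19.1 points, adjusted p = 0.0198, and 14.9 points, adjusted p = 0.0298). Control 3 also had the highest B cell and T and NK cell marker scores of the controls (8.19 and 5.81). Control 4, with the smallest Hk1 share, had the lowest (4.47 and 1.92). Control 5 had the next largest share but lower scores (7.42 and 5.08) than controls 1 and 2. The part of these cells was not tested.

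Pfkp made up 57.2, 58.5, 53.4, 56.0 and 51.3% of phosphofructokinase TPM in the day 7 grafts, 55.8, 51.6, 52.8, 47.4 and 50.6% in the day 3 grafts, and 32.8, 25.1, 43.3, 32.5 and 50.3% in the controls. All day 7 grafts were above all controls, and control 5 overlapped the day 3 grafts. The gain was 18.5 points at day 7 (exact permutation test, adjusted p = 0.0198) and 14.9 at day 3 (adjusted p = 0.0366 by the same exact test). The day 3 call ended in 4 of the 15 repeats that left out 1 library (day 3 graft 1, 2, 3 or 5), with exact adjusted p-values up to 0.0744, and on shares of counts not divided by length (12.9 points, exact adjusted p = 0.0595).

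Pfkm made up 10.6, 12.8, 11.1, 7.87 and 4.11% in the day 7 grafts, 5.71, 3.95, 2.82, 3.58 and 4.70% in the day 3 grafts, and 13.9, 37.3, 12.7, 15.4 and 12.6% in the controls. The day 3 grafts lay below every control, and control 2, rich in muscle mRNA, was far above all other libraries. The difference was -14.2 points at day 3 (exact permutation test, adjusted p = 0.0198), and it remained called in each of the 15 repeats. At day 7 it was -9.08 points (exact adjusted p = 0.0446), and -4.36 without control 2 (exact adjusted p = 0.0794). Pfkm was the only share that passed between day 7 and day 3 grafts, 5.16 points higher at day 7 (exact adjusted p = 0.0446). Both of these calls ended in 10 of the 15 repeats that left out 1 library, with exact adjusted p-values up to 0.132 against control and up to 0.0744 between grafts. Without controls 2 and 5, the 2 libraries richest in muscle markers, the call against control ended (-4.70 points, exact adjusted p = 0.122). Neither control enters the comparison between grafts, which stayed at 5.16 points and changed only in the adjustment (exact adjusted p = 0.051). The same held between grafts without control 2 alone (exact adjusted p = 0.051). Muscle scores also differed among the grafts. Day 7 grafts 3 and 1 had scores of 4.204 and 3.38, with Pfkm shares of 11.1 and 10.6%. Day 7 graft 5 had a score of 0.47 and a share of 4.11%, within the day 3 range. Day 7 graft 2 had the largest share of its group (12.8%) at a score of only 1.099. Day 3 graft 1 had the highest score of its group (4.11) and its largest share (5.71%). The part of muscle mRNA between grafts was not tested. Against control, the repeats without day 3 graft 1, 2, 3 or 5 left -9.08 points and changed only the adjustment (exact adjusted p = 0.051). Pfkl averaged 35.4 ± 5.92% at day 7, 44.2 ± 3.77% at day 3 and 44.8 ± 7.70% in the controls, with no share test passed (exact adjusted p = 0.0926, 0.849 and, between grafts, 0.056). On counts not divided by length its share passed between the grafts, at -9.59 points (exact adjusted p = 0.042).

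Pfkfb4 made up 31.2, 37.7, 30.5, 30.5 and 18.7% of PFKFB TPM in the day 7 grafts, 30.1, 13.9, 20.8, 18.2 and 22.1% in the day 3 grafts, and 4.13, 2.801, 4.18, 1.93 and 8.91% in the controls. No graft overlapped the controls, and the gain was 25.3 points at day 7 and 16.6 at day 3 (exact permutation test, adjusted p = 0.0198 for each). Pfkfb1 made up 8.06, 12.2, 8.52, 10.7 and 4.33% at day 7, 8.62, 11.8, 8.49, 7.51 and 11.04% at day 3, and 19.7, 16.7, 16.8, 28.9 and 21.0% in the controls. Its share was smaller in every graft than in any control, with a difference of -11.9 points at day 7 and -11.2 at day 3 (exact adjusted p = 0.0198 for each). On counts not divided by length the difference was -5.44 points at day 7 and -5.15 at day 3, called in both.

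Pfkfb3 made up 52.3, 38.2, 52.8, 48.7 and 70.8% in the day 7 grafts, 52.7, 67.7, 65.3, 68.7 and 60.3% in the day 3 grafts, and 72.8, 77.9, 74.98, 66.4 and 65.6% in the controls. Both graft groups overlapped the controls, with day 7 graft 5 highest among grafts. The difference was -19.0 points at day 7 (exact permutation test, adjusted p = 0.0446) and -8.63 at day 3 (exact adjusted p = 0.1). On counts not divided by length the day 3 difference was -9.86 points and passed (exact adjusted p = 0.0198). The day 7 call ended in 11 of the 15 repeats that left out 1 library, with exact adjusted p-values up to 0.0635, and without the 2 libraries richest in muscle markers (-18.8 points, exact adjusted p = 0.122). The repeats without day 3 graft 1, 2, 3 or 5 left the difference at -19.0 points and changed only the adjustment (exact adjusted p = 0.051). Pfkfb2 was 8.95 ± 2.13% at day 7, 6.59 ± 1.25% at day 3 and 3.43 ± 0.83% in the controls, a gain of 5.53 and 3.16 points without overlap (exact adjusted p = 0.0198 for each). Its share rose while its count-based level fell.

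Without day 7 graft 5, 6 further shares differed between day 7 and day 3 grafts in the exact permutation test. Hk1 (5.71 points, adjusted p = 0.0251), Pfkfb4 (11.5, 0.0251) and Pfkfb2 (3.06, 0.0454) were larger at day 7 by that exact test. Hk2 (-12.8 points, adjusted p = 0.0251), Pfkl (-11.1, 0.0251) and Pfkfb3 (-14.9, 0.0357) were smaller at day 7 by that exact test. With all libraries none of these 6 passed.

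The levels of Hk3, Pfkm and Pfkfb1 were set beside the macrophage, skeletal muscle and adipocyte marker scores, in that order. This is a description over 15 libraries that share depth, composition and group. The values of Pfkm beside the muscle score are given above with its levels. Hk3 and the macrophage score were both lowest in the controls and both higher in every graft. Within the controls, the library with the highest macrophage score (control 5) was the one with the highest Hk3. Within the grafts the highest values did not fall together. Among the day 7 grafts Hk3 was highest in graft 4 (73.1 CPM, macrophage score 8.67) and the score in graft 5 (9.36, with Hk3 at 68.7 CPM). Among the day 3 grafts Hk3 was highest in graft 4 (113 CPM, score 8.92) and the score in graft 1 (9.21, with Hk3 at 105 CPM). Day 3 grafts 2 and 5 had the lowest scores of that group (8.27 and 8.52) and the lowest Hk3 (59.3 and 65.8 CPM). Among the day 7 grafts Hk3 was lowest in graft 1 (57.6 CPM, score 8.83) and the score in graft 2 (8.64, with Hk3 at 63.1 CPM). Pfkfb1 was highest in control 4 (123 CPM), the library with the highest adipocyte score (10.5), and lowest in day 7 graft 5, whose adipocyte score was 5.34. The lowest adipocyte score, 4.47, was that of day 7 graft 1, with Pfkfb1 at 5.24 CPM. Among the day 3 grafts Pfkfb1 was highest in graft 2 (12.1 CPM), which also had the highest adipocyte score of that group (7.65).

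**Figure D4:**
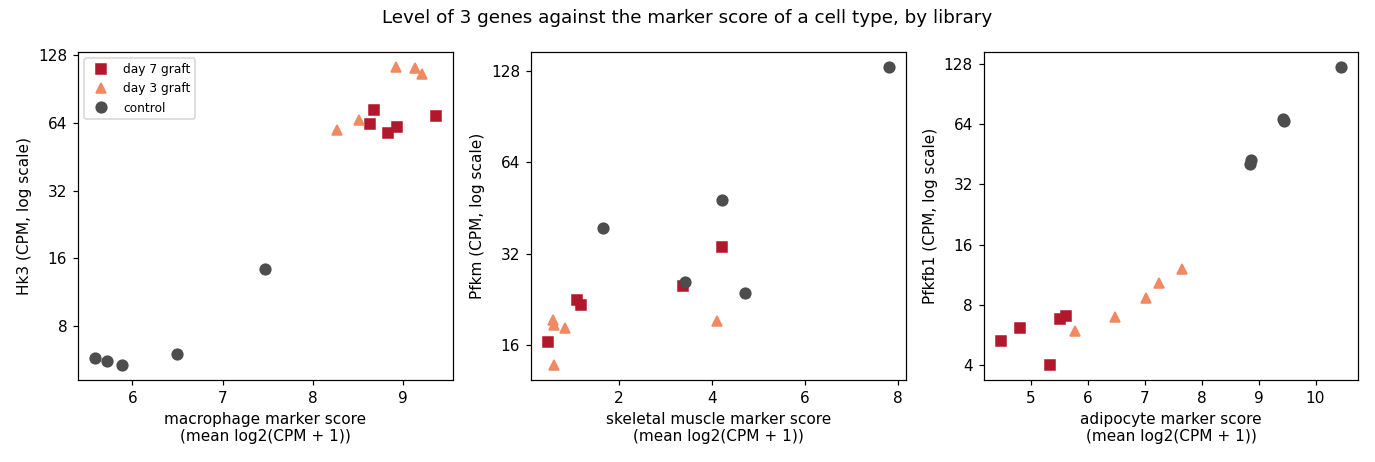
Level of Hk3, Pfkm and Pfkfb1 in CPM (vertical axis, log scale) against the score of macrophage, skeletal muscle and adipocyte markers (horizontal axis, mean log2(CPM + 1)), 1 point per library of the day 7 grafts, day 3 grafts and controls. Control 2 lies alone at a muscle score of 7.79 with 131 CPM of Pfkm, and the controls lie apart from the grafts at adipocyte scores of 8.84 to 10.5.

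Some markers of other cells were also called in the grafts, and their part in the results above was not tested. Of all tested genes, 32.2% rose and 28.4% fell at day 7, and 30.1% rose and 30.3% fell at day 3. Between grafts 3.18% were higher and 1.71% lower at day 7. Of 12 skeletal muscle markers 1 fell at day 7 and 3 at day 3, with none higher, at scores of 0.47 to 4.204 at day 7, 0.57 to 4.11 at day 3 and 1.66 to 7.79 in the controls. All 8 B cell markers and 9 of 10 T and NK cell markers fell at both times, with B cell scores of 1.31 to 2.05 at day 7, 0.69 to 1.198 at day 3 and 4.47 to 8.19 in the controls, and T and NK cell scores of 0.87 to 1.84 at day 7, 0.52 to 1.24 at day 3 and 1.92 to 5.81 in the controls. Neutrophil markers rose for 6 of 10 at both times, fibroblast markers for 8 of 10 at day 7 and 6 of 10 at day 3, and endothelial markers for 7 of 10 and 5 of 10. Erythroid markers rose for 2 of 7 at day 7 and 3 of 7 at day 3, and cell cycle genes for 6 of 6 and 4 of 6. Fibroblast scores were 9.22 to 9.70 at day 7, 7.88 to 9.07 at day 3 and 6.37 to 8.12 in the controls, and neutrophil scores were 2.83 to 4.69 at day 7, 2.35 to 4.21 at day 3 and 1.48 to 3.57 in the controls. Endothelial scores were 5.63 to 6.49 at day 7, 5.16 to 6.96 at day 3 and 5.13 to 5.78 in the controls. None of the 8 germ cell and epididymis markers passed the filter, and at most 1 of them was above 0 in any library. Between day 7 and day 3 grafts 7 adipocyte markers were lower and 2 fibroblast markers were higher at day 7, and no marker of the other lists was called.

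The deposited RPKM and counts together give the gene length that was used in each library, which follows from the mix of transcripts assigned to a gene. This look was chosen after the values were seen and has no test. In 219 genes with 1 listed transcript and at least 500 counts in every library, the length varied over libraries by a median of 1.33%. Such genes cannot change their mix, so this value gives no spread for Pfkfb1 (7 listed transcripts) or Hk2 (4). The counts of Pfkfb1 were also lower, at 106 to 204 in the day 7 grafts and 148 to 339 in the day 3 grafts. Pfkfb1 had a length of 1.04 to 1.16 kb in the day 7 grafts, 1.13 to 1.33 kb in the day 3 grafts and 1.38 to 1.40 kb in the controls. All grafts lay below all controls. Hk2 spanned 2.09 to 2.77 kb in the day 7 grafts, 1.90 to 2.69 kb in the day 3 grafts and 2.38 to 2.74 kb in the controls, with overlap of all groups. Pfkm stayed within 2.58 to 2.62 kb at day 7, 2.58 to 2.65 kb at day 3 and 2.57 to 2.605 kb in the controls.

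**Figure D5:**
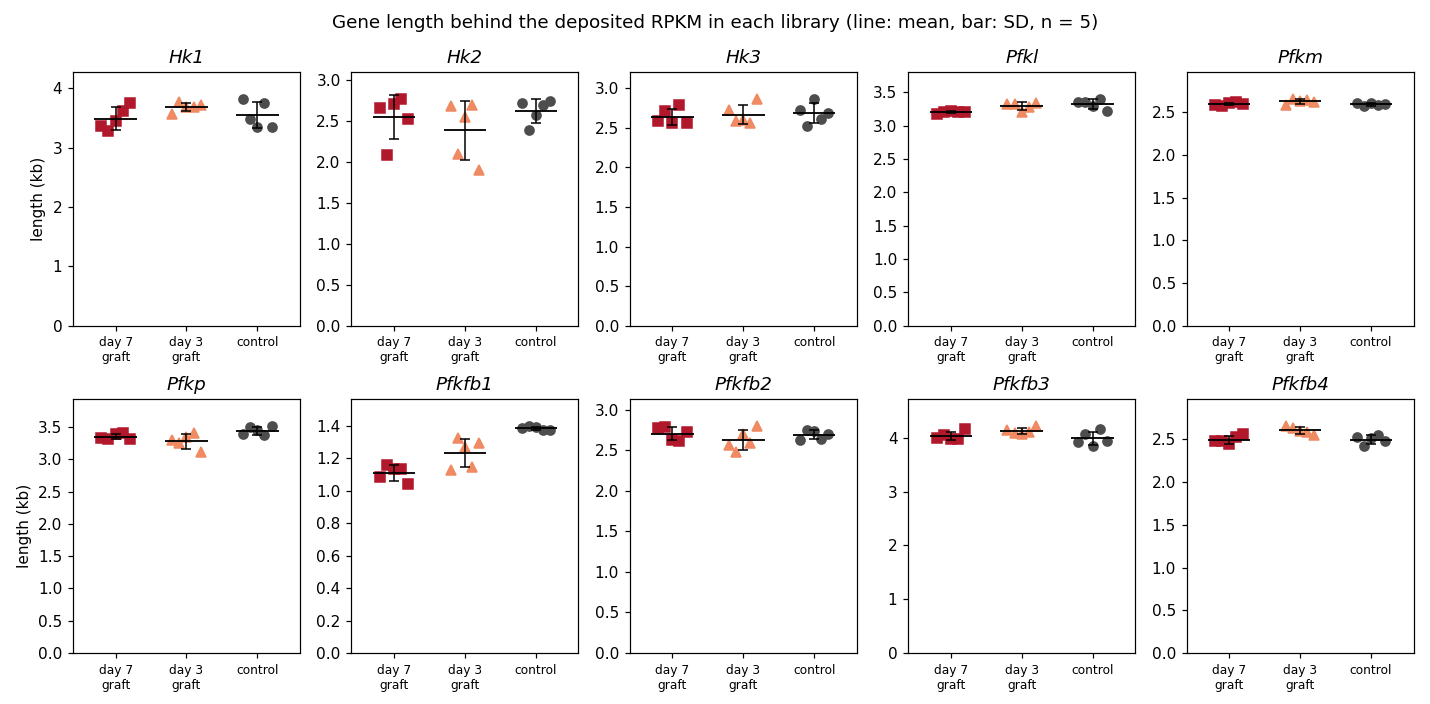
Gene length in kb (vertical axis, from 0) implied by the deposited counts and RPKM of each gene in every library, with mean and SD for n = 5 day 7 grafts, day 3 grafts and controls. Pfkfb1 is shorter in the grafts (1.04 to 1.33 kb) than in the controls (1.38 to 1.40 kb), and Hk2 reaches down to 1.90 kb in single day 3 grafts.

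The partners of the hexokinase step moved both ways. Of 9 listed genes 6 were tested, with 1 higher and 3 lower at day 7 and 2 higher and 3 lower at day 3 (median log2 fold change -0.35 at day 7 and -0.45 at day 3). That is 66.7% called at day 7 and 83.3% at day 3, against 60.7% and 60.4% of all tested genes. Gpi1, which turns glucose 6-phosphate into the substrate of phosphofructokinase, rose at day 3 (1.123 ± 0.26, adjusted p = 0.00177) and was not called at day 7 (0.36 ± 0.25, adjusted p = 0.222). G6pc3, a phosphatase that reverses the hexokinase step, fell at both times (-0.63 ± 0.15, adjusted p = 0.00179 at day 7, and -0.48 ± 0.14, adjusted p = 0.00963 at day 3). Gfpt1, the entry enzyme of the hexosamine pathway, rose at both times (0.40 ± 0.14, adjusted p = 0.0219 at day 7, and 0.45 ± 0.14, adjusted p = 0.0117 at day 3). The 3 listed genes that were not tested averaged under 0.2 CPM in every group.

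Of 6 genes that oppose or follow the phosphofructokinase step 4 were tested, with 1 higher and 3 lower at day 7 and 1 higher and 2 lower at day 3 (median -0.84 at day 7 and -0.41 at day 3). That is 100% called at day 7 and 75% at day 3, against 60.7% and 60.4% of all tested genes. Tigar, a phosphatase that breaks down fructose 2,6-bisphosphate, was at 9.83 ± 1.17 CPM at day 7, 10.4 ± 1.29 CPM at day 3 and 16.5 ± 2.33 CPM in the controls (log2 fold change -0.74 ± 0.13, adjusted p = 1.98e-04 at day 7, and -0.66 ± 0.13, adjusted p = 5.06e-04 at day 3). Aldoc, an aldolase known from brain, rose by 2.04 ± 0.33 at day 7 (adjusted p = 9.57e-05) and 2.45 ± 0.32 at day 3 (adjusted p = 1.67e-05). Aldoa, the main aldolase by level here, fell at day 7 (-0.95 ± 0.28, adjusted p = 0.00866) and was not called at day 3 (-0.16 ± 0.29, adjusted p = 0.648). Fbp2, the muscle fructose bisphosphatase, fell at both times, to 0.30 ± 0.23 CPM at day 7 and 0.67 ± 0.59 CPM at day 3, against 1.81 ± 1.13 CPM in the controls (adjusted p = 0.00377 at day 7 and 0.0348 at day 3). Of 10 genes of glucose uptake and the hypoxia response, 4 rose and 2 fell at day 7 and 5 rose and 2 fell at day 3 (median 0.08 at day 7 and 0.92 at day 3). The called share of this list, 60% at day 7 and 70% at day 3, was near that of all tested genes. Slc2a1, the basal glucose transporter, rose by 2.46 ± 0.44 at day 7 (adjusted p = 2.30e-04) and 3.48 ± 0.45 at day 3 (adjusted p = 1.55e-05), and Slc2a4, the insulin-responsive one, was at -5.95 ± 0.44 (adjusted p = 1.58e-07) and -4.93 ± 0.38 (adjusted p = 2.83e-07) at the same times. No gene of these 3 lists was called between day 7 and day 3 grafts, against 4.88% of all tested genes.

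The genes most like a member were those with the highest Pearson r over the 15 libraries of deviations from the group mean of log2(CPM + 1), among 11237 genes. The libraries share depth and composition, so r is a description. Egln1, an oxygen-sensing prolyl hydroxylase, headed the list of both Pfkl (0.967) and Pfkfb3 (0.957), followed for both by Gys1 (0.953 and 0.937), the glycogen synthase of muscle and fat, and Aldoa (0.949 and 0.928). For Hk2 the genes were Pgam1 (0.932), a glycolytic mutase, Map6 (0.920) and Gypc (0.917). For Pfkp they were Egln3 (0.928), Pgf (0.900) and Pvr (0.897). For Hk3 they were Slc11a1 (0.949), a metal transporter of macrophage phagosomes, Aldh3b1 (0.947) and Gla (0.943).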

How the data were processed

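Stranded mRNA libraries, made from RNA purified by Trizol and RNeasy, were read as 151 bp pairs, per the labels' protocols. Cutadapt 2.8, STAR 2.7.1a, RSEM 1.3.1 and the build mm10 are listed, without their roles, per the submitters' processing notes. The authors deposited, for each of 15 samples, an estimated count per gene (whole numbers written with digit separators), an RPKM and a TPM value. The RPKM values deposited by the authors are per length and per library size and served here only to derive gene lengths. The TPM values deposited by the authors are per length and sum to the same total in each library, and they served for isoform shares and levels. A count model was not run, although the counts were whole numbers once the separators were removed. Limma-voom (limma 3.58.1, R 4.3.3) took its place, as planned for estimated counts.

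Genes were kept at a CPM of at least 0.3894 (10 counts at the median library) in at least 5 samples, with at least 15 counts in all, which left 16051. Scaling used trimmed means of M-values (trims of 30% and 5%, factors 0.746 to 1.14). All 15 samples entered 1 fit of 3 group means with Benjamini-Hochberg adjustment. Total counts of 17.1 to 32 M put 96 to 20385 counts behind a member's value in a library. No pair of libraries agreed within sampling noise (chi-square per gene of 28.4 for the closest). The replicate numbers were not taken as pairs. Log2(TPM + 1) and log2(CPM + 1) use a pseudocount of 1 and understate changes of low genes.

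Alternatives changed the scaling, the filter, the unit, the weights or the samples in the fit, added a replicate block, or left out single libraries. All 10 members are named, listed genes are counted in full, and the 3 most alike genes (mean level 5 CPM or more) are given for at most 5 members. The result of 1 listed gene is not reported here. The members and lists were chosen with earlier results of these data known. The fit was tested on simulated counts and the exact test against a second implementation. Python 3.11.15 with matplotlib 3.10.9 drew the figures.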

Additional observations from a re-analysis of the deposited data

Results flagged for a closer look

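Of 60 sets of 5 libraries (10 levels and 10 shares in 3 groups), 6 held a library whose gap to the nearest other exceeded 0.71 of the whole range (Dixon's 95% value for 5), where chance gives about 1 in 20. Levels and shares come from the same libraries, so the sets are not independent and their number cannot be read as an excess. Hk2 in day 7 graft 5 and Pfkm in control 2 were each flagged both as level and as share. Hk2 was at 133 CPM in day 7 graft 5, against 29.97 to 56.6 CPM in the other day 7 grafts, and its share was 47.4% there against 25.2 to 31.4%. Pfkm was at 131 CPM in control 2, against 23.8 to 48.2 CPM in the other controls, and its share was 37.3% there against 12.6 to 15.4%. Pfkm was at 13.7 CPM in day 3 graft 3, below 18.2 to 19.4 CPM in the other day 3 grafts. Hk3 was at 14.3 CPM in control 5, against 5.34 to 6.02 CPM in the other controls.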

How the results depend on the processing

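The 8 members called in each comparison with control gave counts within 1.5 times of 8 under every alternative run, as did the 16 share calls. For day 7 against day 3 grafts the number of members called, 0 in all libraries together, was 1 with median-of-ratios scaling, 1 with no filter on low counts, 1 with only 2 groups in the fit, 6 with sample quality weights, and 0 to 3 over the fits that left out 1 library. The number of all genes called there was 784, against 1395 with only 2 groups in the fit, 3668 with quality weights and 321 to 1525 over the fits that left out 1 library (lowest without day 7 graft 2, highest without control 4). Signs turned for values that were not called. Pfkl at day 7 was 0.11 on log2(TPM + 1), Hk2 at day 3 was -0.15 with quality weights and -0.11 to 0.39 over left-out libraries, the Pfkl share at day 3 was -2.55 to 1.499 points, and the Pfkfb1 share between grafts was -1.59 to 0.38 points. The cause was not tested. Of called genes 53.1% were higher at day 7 and 49.9% at day 3 against control, but 74.1% and 68.0% on log2(TPM + 1), where the median of all genes moved to 0.33 and 0.22. Between grafts 65.1% were higher, and 53.4% with only 2 groups in the fit. Library totals moved the day 7 median to 0.12, and no filter moved it to -0.12 (-0.18 at day 3). Same-numbered libraries had correlations of -0.18 to 0.34, and 2 of 15 correlated best with their own number. The labels do not say whether the numbers pair libraries, and correlations of so few libraries cannot exclude it. With the replicate block 9725, 9726 and 659 genes were called (day 7 and day 3 against control, and between grafts), with 8, 8 and 0 members. For shares, pairs of 5 allow no exact p below 0.0625, so that alternative was not run. Low depth limits Pfkfb1 in the grafts and Hk3 in the controls most.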
